A study of Glycine max with 12 samples.

Results

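Transcripts that were lower in aphid-infested than in uninfested leaves of susceptible soybean plants were examined, and 170 of 37593 soybean probe sets met the description. Each probe set combines several short oligonucleotides on the microarray into 1 measure of a transcript. The members were chosen by infested S minus uninfested S, the difference of mean log2 intensities after quantile normalization, which gives every array the same distribution of values. Probe sets at -1.5 or lower were kept, and those carrying a platform symbol that starts with WRKY, MYB, BZIP, NAC or GST were to be dropped, although none of the 170 carried one. These 170 probe sets stood for about 143 genes or unmatched sequences, because 17 genes were represented by 2 or more probe sets. A single platform symbol was attached to 77 of them, several symbols to 1, and none to 92. With the gene names of the study's own list of changed transcripts added, which holds 86 of the 170 and was drawn up from these same arrays, 115 had a symbol or an entry and 55 had neither.

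The leaves came from 2 soybean lines, each with and without soybean aphid, *Aphis glycines*, a phloem-feeding insect. R plants were line LD05-16060, which carries the aphid resistance gene *Rag1*, and S plants were line SD01-76R, which is susceptible. Infested R and infested S plants received 30 aphids per plant on the third trifoliate leaf and were harvested after 21 days under nets, and uninfested R and uninfested S plants were handled alike without aphids. Each of the 4 groups had 3 Affymetrix Soybean Genome Arrays, and each array held leaves pooled from a pair of plants. Every infested plant stood on one side of the growth chamber and every uninfested plant on the other, so infestation and chamber side cannot be told apart. Infested S plants carried far more aphids than infested R plants, so line and aphid load cannot be told apart in the comparison of the infested groups. The same holds wherever the S difference is set beside the R difference. Members were also chosen by the S difference and not by the R difference, which favors the larger S values.

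Source leaves make starch in chloroplasts by day, break it down at night and export sucrose through the phloem, the tissue from which aphids feed. Soybean leaves also store nitrogen in vegetative storage proteins and lipoxygenases. They make flavonoids through chalcone synthase, flavanone 3-hydroxylase and dihydroflavonol reductase, and they make triterpene saponins from the mevalonate pathway through beta-amyrin. Cell wall proteins such as expansins, endoglucanases, xyloglucan endotransglucosylases and arabinogalactan proteins act mostly while cells expand. Members of each of these routes were among the 170 probe sets.

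The deposited values were log2 intensities whose array medians ran from 6.86 to 7.71 before normalization. On the normalized scale the median of the 60 control probe sets lay between 5.40 and 5.43 in the 4 groups, and 6 members had a group mean at or under that level, each in infested S plants, whereas 18.8% of all probe sets had a group mean there. Leaf markers were present. The 11 probe sets of chlorophyll a/b binding protein and rubisco activase had a median level of 9.68 and 1 of them, for CAB3, was at control level. Seed storage proteins, glycinin and beta-conglycinin, were at control level in 11 of 11 probe sets. Leghemoglobin and the phloem markers SUC2 and PP2 had no probe set under a single symbol. The mean level of the leaf marker list was 8.99 to 9.91 in infested R plants, 9.04 to 9.39 in infested S plants, 9.04 to 9.75 in uninfested R plants and 9.62 to 9.68 in uninfested S plants. The leaf marker list was thus lower on all infested S arrays than on all uninfested S arrays, with a median of -0.48 over its probe sets, and its part in the results below was not tested. In leaf RNA from whole tissue, fewer cells of a type and less RNA per cell cannot be told apart. The 3 arrays of a group held different plants from 1 growth chamber experiment, so p-values measure the spread between such pools.

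These values of infested S minus uninfested S, which chose the members, are given as a description with no test. They ran from -3.52 to -1.502, with a median of -1.80, whereas the median over all probe sets was -0.04. On the linear scale the median member was 3.49 times lower in infested S leaves. In this contrast, which the choice of members fixed, 90 members were lower at an adjusted p under 0.05, where the share among all probe sets was 0.902%. A fit with replicate number as a block gave 140 members and 2.23% of all probe sets. In 127 members there were 3 infested S arrays below all uninfested S arrays, where the share was 10.8%. The 3 members closest to the threshold were CYP76O2, LOC100305373 and LOC100818568, at -1.503, -1.503 and -1.502. The 3 probe sets just beyond it, at -1.496, -1.492 and -1.491, were a second probe set of SGT2 and 2 without a symbol.

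The infested S arrays differed among themselves. The median level of the 170 members was 6.59, 7.82 and 7.14 on infested S arrays 1, 2 and 3, against 9.32, 9.55 and 8.76 on uninfested S arrays 1, 2 and 3. In R plants it was 9.26, 8.79 and 8.69 on infested arrays and 9.62, 8.93 and 9.06 on uninfested arrays. The 3 infested S arrays were below the other 9 by this measure, a place that the choice of members favors, and the R arrays overlapped. Infested S array 1 was the lowest of its group for 143 members, compared with 33.3% of all probe sets, and infested S array 2 was the highest of its group for 134 members, compared with 34.1% of all probe sets. Set against the mean of uninfested S plants, the median member stood at -2.56 on array 1, -1.27 on array 2 and -1.94 on array 3, and 117 of the 170 were at -1 or lower on array 2 alone. Without infested S array 1 the threshold was met by 105 probe sets, 102 of them members, and without infested S array 2 by 267, 160 of them members.

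**Figure D1:**
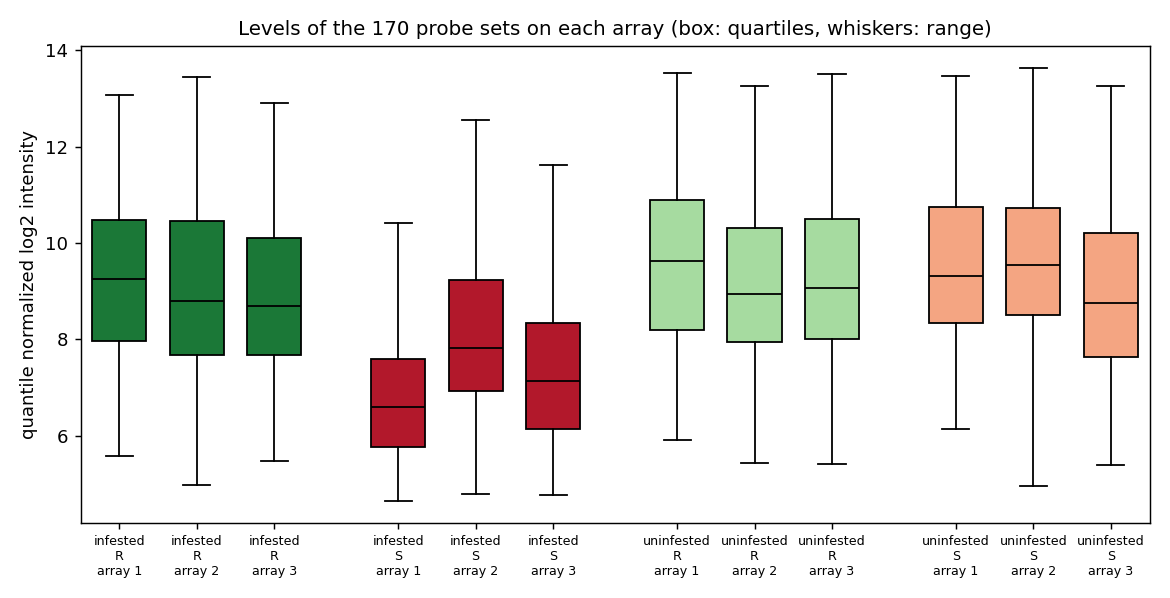
Quantile normalized log2 intensity of the 170 probe sets on each of the 12 arrays, by group, with boxes for quartiles, a line for the median and whiskers for the range. The 3 infested S arrays have medians of 6.59, 7.82 and 7.14, below the 9 other arrays, whose medians lie between 8.69 and 9.62. The choice of members favors low values on the infested S arrays.

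Starch and sugar transcripts held several of the lowest values. Granule-bound starch synthase (LOC100037476, Glyma.16g018500), which makes amylose, was measured by 3 member probe sets. The lowest of them read 7.47, 7.89 and 7.74 on infested S arrays and 11.60, 9.64 and 10.52 on uninfested S arrays, a difference of -2.88. All infested S arrays lay below all uninfested S arrays, and the other 2 probe sets differed by -2.46 and -2.45. In R plants the lowest probe set read 10.80, 9.47 and 10.78 with aphids and 12.27, 9.08 and 11.50 without. These arrays overlapped (difference -0.60 ± 0.71, SE). Probe sets with the symbol GBSSIa were not members. At levels of 5.04, 6.13 and 5.50, they differed by 0.13, -0.25 and 0.18 in S plants.

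An acid invertase (LOC100799487, Glyma.17g138500), which splits sucrose in the vacuole, read 7.42, 9.61 and 8.31 in infested S plants and 11.35, 11.71 and 10.16 in uninfested S plants. The second infested S array was the nearest to the uninfested S arrays, and the groups did not overlap. In infested R plants this invertase read 11.93, 9.45 and 10.68, against 11.42, 10.18 and 11.17 in uninfested R plants. Beta-amylase BMY1 (LOC547931), which releases maltose from starch, stood at -2.29 in S plants and differed by -0.56 ± 0.45 (SE) in R plants. A plastidic glucan phosphorylase (Glyma.20g026700), which frees glucose phosphate from glucan chains, stood at -1.77 in S plants and at -0.34 in R plants. Myo-inositol-phosphate synthase, the first enzyme of inositol synthesis, gave -2.30 for MIPS4 and -1.91 for MIPS in S plants, with -0.31 and -0.33 in R plants. The signals of the MIPS probe sets may be shared between near-identical copies. Over the 9 starch and sugar probe sets the median was -2.30 in S plants and -0.34 in R plants.

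Cell wall transcripts came from 13 member probe sets of 7 genes. A fasciclin-like arabinogalactan protein (Glyma.02g308700), a type of surface glycoprotein, read 7.72, 8.97 and 7.59 in infested S plants and 10.95, 11.24 and 10.41 in uninfested S plants on its lowest probe set. It read 10.89, 9.53 and 10.41 in infested R plants and 10.85, 10.11 and 10.08 in uninfested R plants. Infested S plants stood apart and the R groups overlapped, and 2 further probe sets of the gene differed by -2.67 and -2.38 in S plants. The endo-1,4-beta-glucanase GLU (LOC732598), which cuts glucan chains of the wall, differed by -2.19, -2.15 and -1.62 in S plants on its 3 member probe sets. These gave -0.54 ± 0.30, -0.41 ± 0.31 and -0.33 ± 0.32 (SE) in R plants. A cellulose synthase-like gene (LOC100788506) read 7.27, 10.06 and 8.77 in infested S plants and 11.80, 11.27 and 10.73 in uninfested S plants. Infested S array 2 was close to the lowest uninfested S array and array 1 was far lower. A glycosyltransferase of family 37 (Glyma.07g022300, 3 probe sets), a xyloglucan endotransglucosylase (LOC100786906), a family 9 hydrolase (LOC100812226) and the expansin EXP4, which loosens walls, ranged from -2.13 to -1.53 in S plants. In EXP4 infested S array 2, at 8.06, lay above uninfested S array 2, at 7.08, so those groups overlapped. Across the 13 probe sets the difference in R plants lay between -0.54 and 0.11.

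Flavonoid transcripts differed in S plants and stayed within 0.20 of 0 in R plants. Dihydroflavonol reductase (LOC100137082), which leads to anthocyanins, read 7.57, 9.39 and 9.29 in infested S plants and 11.30, 10.66 and 10.94 in uninfested S plants on the lowest of 3 probe sets. It read 11.28, 10.65 and 10.81 in infested R plants and 10.55, 11.33 and 11.15 in uninfested R plants, a difference of -0.10 ± 0.41 (SE). The R arrays overlapped and every infested S array was below all 9 others. The study assigns these 3 probe sets to Glyma.18g057900 and Glyma.11g164700. Probe sets with the symbols DFR1 and DFR2 were not members. At levels of 5.40 and 5.34, they differed by -0.02 and -0.27 in S plants. Flavanone 3-hydroxylase (F3H), which makes dihydroflavonols, read 6.15, 7.01 and 6.72 in infested S plants and 8.43, 8.36 and 8.49 in uninfested S plants. In R plants F3H read 7.58, 7.60 and 7.65 with aphids and 7.37, 8.15 and 7.46 without. F3H in uninfested R plants was below uninfested S plants on every array, with a mean difference of -0.77. A chalcone synthase (Glyma.19g105100), the entry enzyme of the route, differed by -2.13 in S plants and by -1.13 for uninfested R minus uninfested S, where the arrays overlapped. Sugar and malonyl transferases completed the group. A UDP-sugar transferase (Glyma.02g104600) gave -2.29 in S plants, where the arrays overlapped. An isoflavonoid glycosyltransferase (LOC100810117) gave -1.93 and -1.60 on 2 probe sets, and a malonyltransferase (LOC100782933), which acylates isoflavone glucosides, gave -2.08. In R plants the 11 flavonoid probe sets lay between -0.11 and 0.20, with a median of 0.07.

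Saponin and other terpenoid transcripts contributed 11 probe sets. They included HMG-CoA synthase and HMG-CoA reductase of the mevalonate pathway, beta-amyrin synthase (AMS1), beta-amyrin hydroxylase (CYP93E1) and the sugar transferases SGT2, SGT3 and GT4, which add sugars to the triterpene. The study lists the SGT2 member probe set as an isoflavonoid glycosyltransferase, so its place here rests on its symbol. CYP93E1 read 7.57, 10.52 and 8.53 in infested S plants and 11.64, 11.25 and 11.25 in uninfested S plants on the lowest of 3 member probe sets. It read 11.99, 11.60 and 10.80 in infested R plants and 11.65, 11.15 and 11.74 in uninfested R plants. A further CYP93E1 probe set, not a member and with a level of 5.20, differed by -0.09 in S plants. Among the infested S arrays array 1 was lowest and array 2 highest, an order that AMS1, SGT2 and SGT3 shared. Differences in S plants were -1.55 for AMS1, -1.84 for SGT2, -2.02 for SGT3 and -1.53 for GT4, and the same 4 differed by 0.09, 0.05, 0.10 and 0.17 in R plants.

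NES and a plastid enzyme departed from that pattern. NES, a terpene synthase, read 5.40, 6.76 and 5.90 in infested S plants and 8.33, 9.73 and 7.26 in uninfested S plants. It read 6.84, 7.12 and 6.70 in infested R plants and 9.11, 7.73 and 7.80 in uninfested R plants. Infested arrays were below uninfested arrays in both lines. A 1-deoxyxylulose-5-phosphate synthase (DXS, Glyma.13g213500), which starts the plastid isoprenoid pathway, read 5.57, 6.12 and 5.78 in infested S plants and 7.85, 8.91 and 6.55 in uninfested S plants. In R plants it read 5.57, 5.83 and 5.93 with aphids and 5.93, 5.87 and 6.04 without. This DXS was therefore high only on the 3 uninfested S arrays, and uninfested R minus uninfested S was -1.82.

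**Figure D2:**
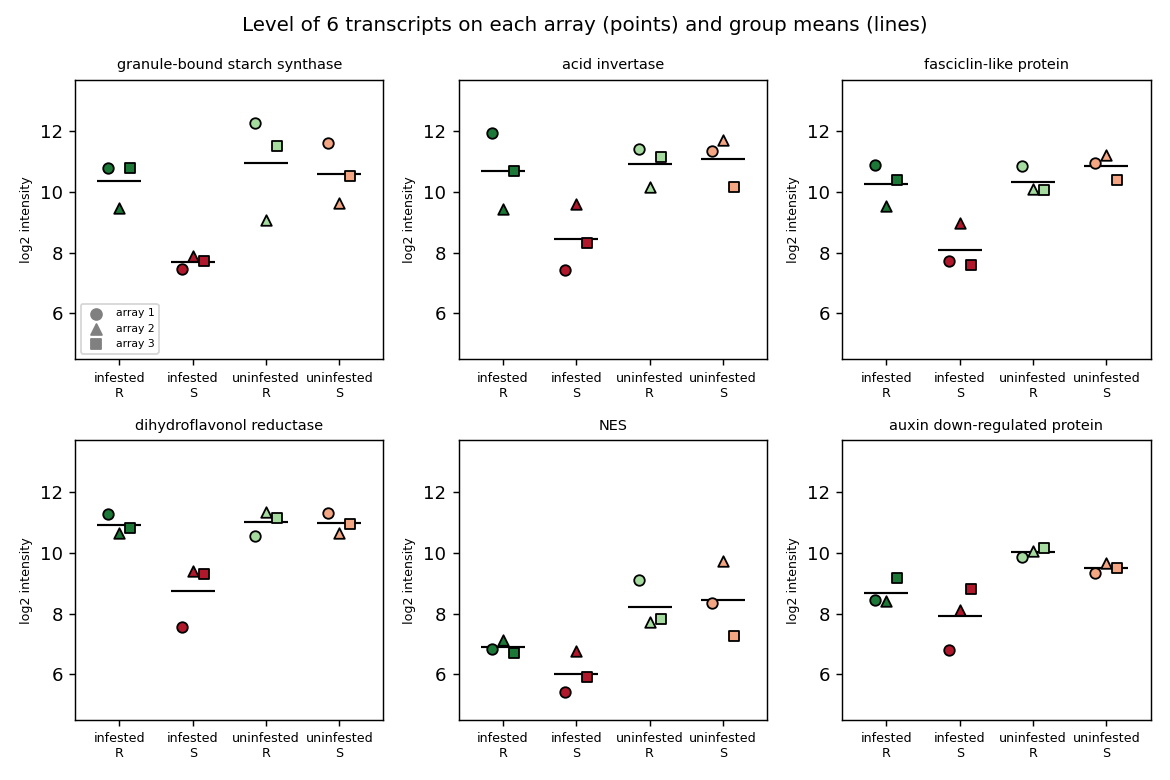
Normalized log2 intensity of granule-bound starch synthase, acid invertase, a fasciclin-like protein, dihydroflavonol reductase, NES and an auxin down-regulated protein in the 4 groups, with a point for each array and a line for the group mean. In each panel the 3 infested S arrays lie below the 3 uninfested S arrays, and for NES and the auxin down-regulated protein the 3 infested R arrays also lie below the 3 uninfested R arrays.

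Leaf storage transcripts were spread widely within groups. Vegetative storage protein VSPA read 5.78, 9.31 and 6.93 in infested S plants and 10.33, 9.76 and 8.20 in uninfested S plants on the lowest of 3 member probe sets. It read 8.50, 11.14 and 7.62 in infested R plants and 9.68, 10.65 and 9.64 in uninfested R plants. Both pairs of groups overlapped, and the second array was the highest in infested R, infested S and uninfested R plants. Further VSPA probe sets, which were not members, differed by -1.11, -0.36, -0.16, -0.07 and 0.50 in S plants. Their levels were 6.76, 5.45, 5.17, 4.83 and 6.19 in the same order. The lowest limma adjusted p of any VSPA probe set in S plants, members included, was 0.298. Lipoxygenase VLXC, which oxidizes linolenic acid and is also stored in leaves, had separate arrays in both lines. It read 8.40, 10.53 and 8.78 in infested S plants and 11.65, 11.15 and 11.55 in uninfested S plants, and 11.17, 11.36 and 10.98 in infested R plants and 11.77, 11.41 and 11.65 in uninfested R plants. The R difference for VLXC was -0.44 ± 0.41 (SE). KTI-2, a Kunitz trypsin inhibitor, gave -1.78 in S plants with overlapping arrays and 0.01 in R plants.

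The second array also stood apart for nitrogen and sugar transporter transcripts. SWEET17, of a family of sugar transporters, read 5.76, 5.02 and 6.36 in infested S plants and 8.77, 5.89 and 7.23 in uninfested S plants. It read 8.90, 5.85 and 9.08 in infested R plants and 8.21, 5.58 and 7.48 in uninfested R plants. The second array was the lowest in all 4 groups. The S arrays overlapped, and a further SWEET17 probe set, not a member and with a level of 6.09, differed by -0.67 in S plants. Asparagine synthetase AS2, which makes asparagine, read 4.65, 4.79 and 5.18 in infested S plants and 7.81, 4.96 and 6.72 in uninfested S plants. For AS2 the second uninfested S array was thus already under the control level. Its second array was also lowest in R plants, at 4.98 with aphids and 5.44 without. Among the 170 members the second array was lowest in all 4 groups for 4, and highest in all 4 groups for 12. Among all probe sets these shares were 5.27% and 4.76%. The 12 included asparaginase ASP1, which releases ammonium from asparagine, at -1.54 in S plants and -0.55 in R plants.

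**Figure D3:**
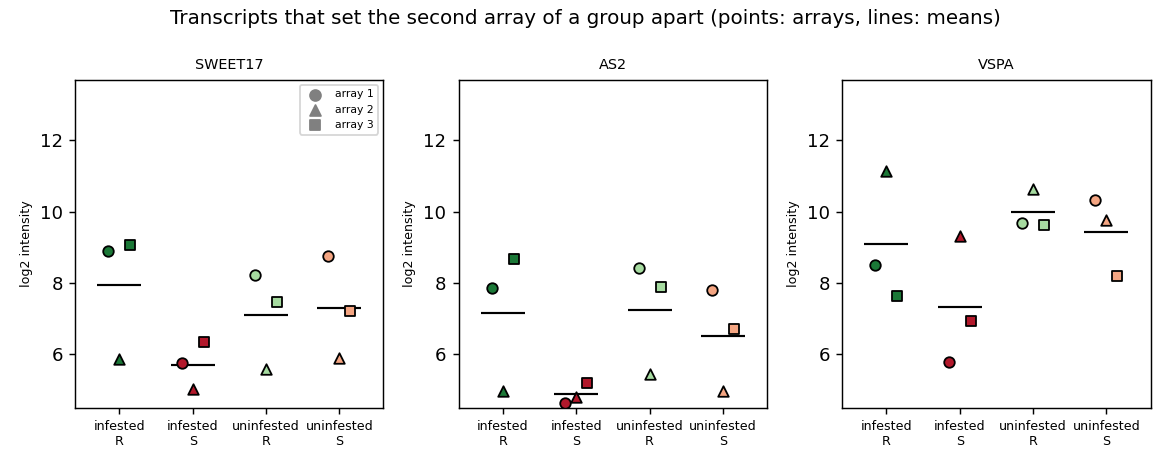
Normalized log2 intensity of SWEET17, AS2 and VSPA in the 4 groups, with a point for each array, marked by its number, and a line for the group mean. The second array is lowest in all 4 groups for SWEET17 and highest in 3 of 4 groups for VSPA, and infested S means are 5.71 for SWEET17, 4.87 for AS2 and 7.34 for VSPA.

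Phosphatase, transport and polyamine transcripts were also among the members. Purple acid phosphatase PAP25, of a family that frees phosphate from organic esters, differed by -2.17, -2.09 and -1.997 in S plants on 3 probe sets, and in R plants by -0.37, -0.27 and -0.31. On the brightest of these it read 7.96, 9.20 and 8.55 in infested S plants, below every value of 10.26 or more on the 9 other arrays. An apyrase (Glyma.16g043400), which removes phosphate from nucleotides, gave -1.88 and -1.71. The aquaporin PIP2-9, a plasma membrane water channel, stood at -2.21, a calcium/proton exchanger (LOC100779440) at -2.47 and a cyclic nucleotide-gated channel (Glyma.18g263900) at -1.75. A pair of polyamine oxidase genes (Glyma.14g209400 and Glyma.08g303800) had 3 probe sets at -2.06, -1.77 and -1.71. A pair of beta-tubulin genes, whose proteins build microtubules, gave -2.002 and -1.68.

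Members with regulatory roles made up 11 probe sets. The lowest was a DREB transcription factor of subgroup A-4 (Glyma.16g023800), at 6.65, 7.31 and 7.41 in infested S plants and 9.45, 9.91 and 9.61 in uninfested S plants. A JAZ3-like protein (LOC100306655), a repressor of jasmonate responses, gave -1.96, a protein phosphatase 2C (LOC100776356) gave -1.98 on each of 2 probe sets, and a calcium-dependent kinase relative (Glyma.05g090900) gave -1.72. A gibberellin-regulated protein (Glyma.06g185300) had 3 probe sets between -1.80 and -1.62. An auxin down-regulated protein (LOC100101848, Glyma.10g214500), from a family named for its loss of transcript after auxin, read 6.79, 8.12 and 8.80 in infested S plants and 9.33, 9.68 and 9.51 in uninfested S plants. It read 8.44, 8.41 and 9.19 in infested R plants and 9.85, 10.07 and 10.16 in uninfested R plants, so that infested arrays were lower in both lines.

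Other members had roles outside these groups. Sali3-2 (LOC547898), named for its induction by aluminum in soybean roots, read 8.59, 11.86 and 9.59 in infested S plants and 12.94, 12.45 and 13.02 in uninfested S plants. Its relatives were matched to a single gene by 4 member probe sets, so their signals may be shared. Glyoxalase GLYI-17, of a family that detoxifies methylglyoxal, gave -2.61, and a Bet v I protein (LOC100500325), of a class that includes pathogenesis-related proteins, gave -2.55. A phosphorylase family gene (LOC100792205, Glyma.06g084200) gave -2.79 and -2.06 in S plants. There a GPI-anchored protein (LOC100305699) gave -2.63, and LOC100778626, with no described role, gave -2.48. Ferritin (LOC547698), which stores iron, read 7.33, 9.36 and 8.17 in infested S plants and 10.65, 9.95 and 8.84 in uninfested S plants. In R plants ferritin read 11.86, 11.13 and 9.99 with aphids and 11.43, 11.92 and 11.87 without, and uninfested R minus uninfested S was 1.93, the highest such value among the 170 members. The lowest member of all, Gma.14976.2.S1_at, had no symbol. It read 5.46, 10.87 and 6.41 in infested S plants and 11.44, 10.90 and 10.95 in uninfested S plants, and its second infested S array was close to the uninfested arrays. The 78 members with no described role, 16 of them with a symbol, had a median of -1.70 in S plants, and 52 of them had separate S arrays. In R plants they lay between -1.24 and 1.16 with a median of -0.20, and they held 8 of the 10 members at -1 or lower there.

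The R arrays took no part in the choice of members, so the response of the same 170 probe sets to aphids could be tested there. Differences ran from -1.35 to 1.16 with a median of -0.24, beside a median of -0.01 over all probe sets. They were below 0 for 127 members, where the share of all probe sets below 0 was 53.2%. The members also varied more within groups, with a median SD over probe sets of 0.59 in infested R plants and 0.49 in uninfested R plants, against 0.21 and 0.19 over all probe sets in the same groups. The part of this wider spread in the following counts was not tested. At -0.5 or lower there were 42 members, with 0.974% of all probe sets there, and at -1 or lower 10 members, with 0.0825% of all probe sets there. At 0.5 or higher there were 5 members, against 2.46% of all. None passed an adjusted p of 0.05 in limma in either direction, where the share called among all probe sets was 0%, and none met the study's cutoffs of p at most 1e-04, q at most 0.04 and a fold of at least 2. At an unadjusted p under 0.05, 6 members were lower, where the share of all probe sets was 0.87%, and 0 were higher, where the share was 1.19%. All 3 infested R arrays lay below all 3 uninfested R arrays for 16 members, beside 3.48% of all probe sets. They lay above for 0 members, beside 2.77% of all.

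The count of lower members in R plants depended on the fit. With the replicate number as a block it was 16, beside 1.59% of all probe sets, and with the R arrays alone 18, beside 0.95% of all. Higher members numbered 0 in both fits, beside 2.43% and 1.4% of all. Leaving out single R arrays gave 3 without uninfested R array 1, 3 without infested R array 3, 14 without infested R array 2 and 10 without uninfested R array 2. The median was -0.08 without uninfested R array 1, on which the members had the highest median level of any array.

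The smallest p in R plants belonged to the auxin down-regulated protein, which differed by -1.35 ± 0.39 (SE, n = 3 arrays a group, limma adjusted p = 1). NES followed in size at -1.33 ± 0.55 (SE). The other 4 at an unadjusted p under 0.05 were a polyamine oxidase probe set (Glyma.08g303800) at -0.67, a glycine-rich RNA-binding protein of the GRP7 type (Glyma.17g008500) at -0.60, and Gma.3154.2.S1_at at -0.66 and GmaAffx.57776.1.S1_at at -0.31, which have no symbol. The 16 with separate arrays also included VLXC, the JAZ3-like protein, the calcium-dependent kinase relative, the Bet v I protein and a second polyamine oxidase probe set. On the other side, GmaAffx.69487.1.S1_at, with no symbol, had the highest difference. It read 12.53, 10.003 and 12.20 in infested R plants and 10.88, 10.38 and 10.01 in uninfested R plants, with array 2 below every uninfested R array (1.16 ± 0.62, SE). The next 4 by p among positive values were Gma.10447.2.A1_a_at at 0.57, LOC100781525 at 0.48, GmaAffx.77637.1.S1_at at 0.40 and LOC100790389 at 0.70, and each had overlapping arrays.

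By function, medians in R plants were -0.78 for the 5 leaf storage and protease inhibitor probe sets, 3 of which measure VSPA with overlapping arrays and SE of 0.90 to 0.97, -0.55 for the 5 of polyamine and nitrogen metabolism, -0.34 for the 11 of signaling and hormones, -0.33 for the 5 phosphatases and -0.23 for the 13 of the cell wall. They were -0.01 for terpenoids and saponins and 0.07 for flavonoids. None of these groups had a member past the adjusted threshold, and differences between groups were not tested.

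**Figure D4:**
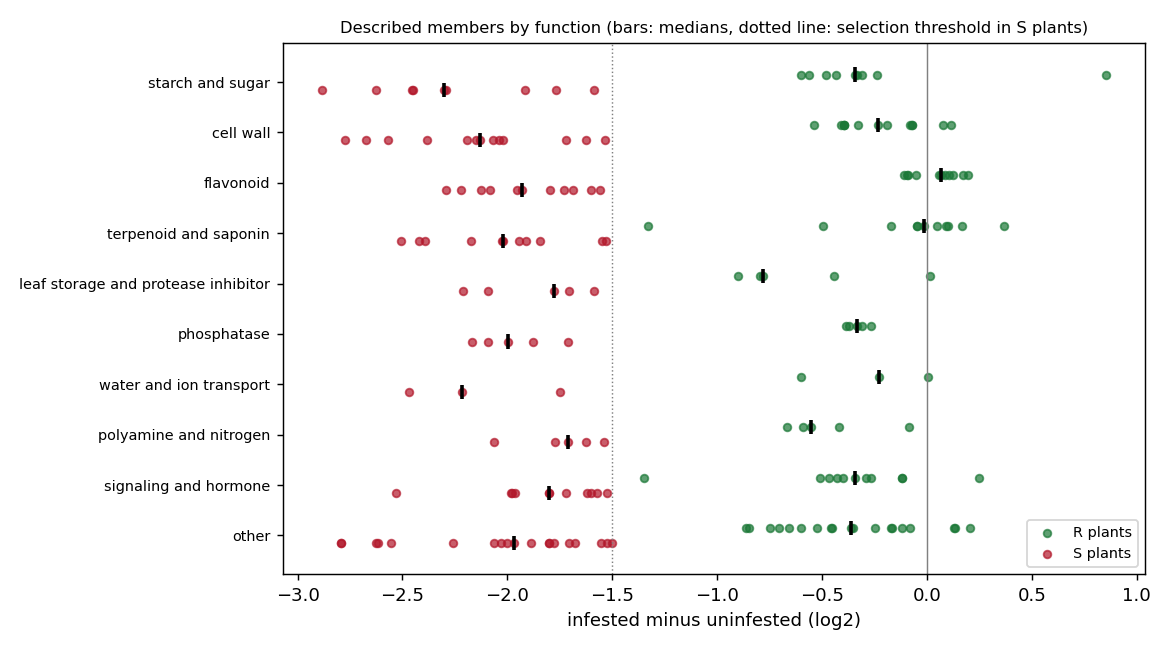
Infested minus uninfested log2 difference of the 92 members given a role or name, by function, in R plants and in S plants, with a point for each probe set and a bar for the group median. The S values lie at or left of the dotted selection threshold of -1.5 by construction, and the R medians lie between -0.78 for leaf storage and 0.07 for flavonoids.

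Infested R plants were set beside infested S plants, and since the infested S arrays chose the members, these values are a description. The difference was above 0 for 169 members, with 57.6% of all probe sets above 0, and ranged from -0.05 to 2.93 with a median of 1.63. In 122 members all infested R arrays were above all infested S arrays, where the share of all probe sets was 9.55%, and 151 members were higher by at least 1, where the share was 1.38%. The 5 highest were GmaAffx.69487.1.S1_at at 2.93, the cellulose synthase-like gene at 2.90, GmaAffx.57176.1.S1_at at 2.88, Gma.3314.2.S1_x_at at 2.87 and PAP25 at 2.74. The 5 lowest were DXS at -0.05, CYP76O2, a cytochrome P450, at 0.25, and GmaAffx.50446.2.S1_at, Gma.3481.1.S1_at and Gma.7743.1.A1_at between 0.65 and 0.70. Values without aphids are likewise a description, since the uninfested S arrays also took part in the choice of members. Without aphids, R minus S ran from -1.82 to 1.93 with a median of 0.03, and 89 of the 170 were above 0, beside 52% of all probe sets. For 7 members the uninfested groups did not overlap, beside 7.5% of all probe sets, and 7 differed by at least 1 in either direction, beside 0.66% of all.

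**Figure D5:**
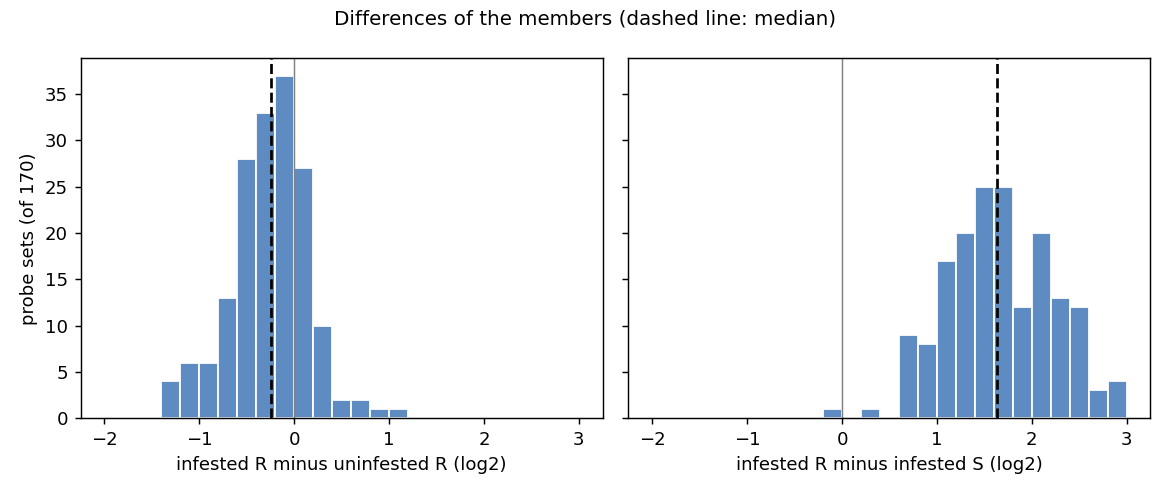
Number of the 170 members by infested R minus uninfested R difference and by infested R minus infested S difference, both in log2 units, in bins of 0.2, with a dashed line at the median. The medians are -0.24 and 1.63, and 169 of 170 members lie above 0 in the second panel, where the infested S arrays had chosen the members.

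Pathway lists made by gene symbol placed the members among the other measured genes of their routes. The 10 lists held 284 probe sets, 34 of them members. In S plants 36 of the 284 were lower at an adjusted p under 0.05, but 23 of these were members, which this contrast had chosen. Of the 250 that were not members, 13 were lower, or 5.2%, where the share of all probe sets was 0.902%, and 6 were higher, or 2.4%, where the share was 2.51%. In the fit with a replicate block 4.34% of all probe sets were called higher. The 13 that were lower included further probe sets of the member genes GLU and F3H, at -1.47 and -1.04. FLS1, PAP and the aquaporin PIP1-10 were each counted more than once, and the lists were made with earlier results known. The share of 5.2% is therefore not independent of the choice of members. Of the terpenoid and saponin list, 8 of 18 probe sets were members, and the other 10 had a median of -0.49 in S plants, with 0 of them lower at the adjusted threshold. Of the starch and sugar list 7 of 34 were members, and of the flavonoid and isoflavonoid list 4 of 63, and those that were not members had medians of -0.05 and 0.15. The photosynthesis list had 0 members among 22 probe sets and a median of -0.17. Among the 13 that were lower without being members, the sucrose transporter SUT1 differed by -1.07 ± 0.23 (SE) and the aquaporin PIP2-13 by -1.44 ± 0.33 (SE). The purple acid phosphatase PAP differed by -1.38 ± 0.32 (SE) and flavonol synthase FLS1 by -1.12 ± 0.23 (SE). The other SUT1 probe sets, at -0.74 and -0.67 in S plants, and a further one of PIP2-13, at -1.14, did not pass.

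In R plants 0 of the 284 passed an adjusted p of 0.05 in limma. At an unadjusted p under 0.05 there were 7 lower, or 2.46%, where the share of all probe sets was 0.87%, and 1 higher, or 0.352%, where the share was 1.19%. Of the 7 lower, 5 were in the starch and sugar list of 34, namely 3 probe sets of SUT1, between -0.71 and -0.65, and 2 of the beta-amylase BMY2, at -0.50 and -0.47. NES and the aquaporin PIP1-4 were the others. The median of all 284 in R plants was -0.06, and that of the 34 members among them -0.31. The leaf storage, lipoxygenase and protease inhibitor list, 38 probe sets of which 5 were members, had a median of -0.03 in R plants.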

How the data were processed

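RNA of the third trifoliate leaves was hybridized to 12 one-color arrays, 3 in each of 4 groups given by the labels. The authors deposited log2 values, for which the methods name GCRMA and the labels list RMA, GCRMA and limma. The deposited values were whole intensities on the linear scale in 99.6% of cells, to a relative tolerance of 1e-06. Array medians differed, so no normalization between arrays was visible. The design had assumed normalized values. The 37593 soybean probe sets (60 control probe sets left out) were therefore quantile normalized here, the 12 sample columns all being used. Tests were limma 3.58.1 in R 4.3.3, a moderated test with 1 mean per group over 12 arrays, Benjamini-Hochberg adjusted over all probe sets, two-sided, checked on simulated data. The number of arrays limits the precision. Symbols came from the platform annotation (8677 of 9047 listed probe sets had 1 symbol, and 370 had several), and further names from the study's list, of which no values were used. Members and lists were chosen with earlier results of these data known. Genes were picked by a rule, and not all of those picked are described. It took members with the lowest S difference, those in a pathway list and those at the threshold. It also took the 5 smallest p in R plants in each direction and the 5 highest and lowest differences between infested groups. Further described members and genes that are not members were chosen after their values were seen. Same-numbered infested and uninfested S arrays had correlations of 0.13 to 0.36, and differently numbered ones of -0.33 to 0.20, so the ranges overlapped. For infested R and infested S arrays these were 0.17 to 0.42 and -0.33 to 0.05. Numbers were taken as pairs from the data, in an alternative fit with a block over all 4 groups. No label gives the numbers a meaning, and the plants stood in a randomized block layout. Alternatives were other normalizations, a background correction, a level filter, other thresholds, a replicate block, fewer arrays and 1 probe set per gene. Probe sequences were not used here.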

Additional observations from a re-analysis of the deposited data

How the results depend on the processing

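The count of 170 members was 108 after normexp background correction (offset 50), 518 at a threshold of -1 and 59 at -2, and 105 to 267 when single S arrays were left out. It was 234 for the values as deposited, 171 after median centering and 142 above the median level. The median R difference of -0.24 kept its sign in every alternative, from -0.35 to -0.08 when R arrays were left out. The 6 members lower at an unadjusted p under 0.05 in R plants became 16 with the replicate block, 18 with the R arrays alone, and 3 to 14 when single R arrays were left out. None passed an adjusted p of 0.05 in any alternative. By deviations from group means, same-numbered infested and uninfested arrays correlated from -0.12 to 0.49 in R plants. Differently numbered ones there correlated from -0.44 to 0.39, and the block used the numbers in R plants too. The block moved the list count from 36 to 43, and no R difference of the 10 members named by p passed an adjusted p of 0.05 with it. Added after seeing the data, the block kept the S calls of the CHS1, PGIP, SUT1, PIP2-13, PAP and FLS1 probe sets that had passed. The median of infested R minus infested S, 1.63, stayed between 1.36 and 1.87 when infested arrays were left out. The cause of these shifts was not tested. For the 6 members at control level, infested S intensities measure only an upper bound.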

Other observations

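Some flavonoid and cell wall transcripts outside the 170 moved the other way in infested S plants. Chalcone synthase CHS1, the entry enzyme of flavonoid synthesis, was higher on 4 of its 7 probe sets, by 2.60 ± 0.43, 2.18 ± 0.36, 1.96 ± 0.42 and 1.71 ± 0.41 (SE, log2), with limma adjusted p from 0.00616 to 0.0433. The other 3 differed by -0.06, -0.22 and 0.25 and did not pass, and the one at -0.06 had the highest level of the 7, 8.16. The chalcone synthase probe set among the members was lower. In R plants the 4 CHS1 probe sets that were higher in S plants differed by 0.71, 0.54, 0.48 and 0.52, and none passed an adjusted p of 0.05. Polygalacturonase-inhibiting protein PGIP, which blocks microbial pectin-degrading enzymes, was higher in infested S plants by 1.47 ± 0.34 and 1.08 ± 0.22 (SE) on 2 probe sets. Whether the S and R responses of these genes differ was not tested.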
